A study of Mus musculus with 21 samples.

Results

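The 46 genes of lysosomal hydrolases, lysosomal membrane proteins and the proton pump described here were chosen by symbol among 64361 genes with a row in the count table. They comprise 19 hydrolases, 9 membrane proteins, 3 proteins of lipid transfer and enzyme activation, 13 genes of the proton pump and the regulators Tfeb and Tfe3. The libraries were prime-seq bulk RNA libraries, which read the 3′ ends of polyadenylated transcripts, from cortex and hippocampus of GA-Camk2a mice and controls at 30 to 40 weeks. GA-Camk2a mice carry a floxed transgene for GFP-tagged poly-GA, a dipeptide repeat protein of C9orf72 ALS, which Camk2a-Cre turns on in excitatory neurons, and were taken at the humane endpoint. They came from a pair of litters according to the study's methods. The alleles of the controls are labelled only as ctrl. There were 11 cortex libraries, 5 of them from controls and 6 from GA-Camk2a mice, and 10 hippocampus libraries, 4 from controls and 6 from GA-Camk2a mice. They came from 11 mice, 10 of which gave both tissues. Libraries of a group came from different mice. Levels are given as CPM, counts scaled to a common library total of 1e+06. Values of one gene can be compared between libraries, but levels of different genes are not compared here.

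Lysosomes are acidic organelles in which hydrolases break down lipids, glycans and proteins that arrive by endocytosis and autophagy. A rotary proton pump, the V-ATPase, acidifies them, and membrane glycoproteins line their inner wall, carry enzymes or move lipids and ions across it. TFEB and TFE3 are transcription factors known to switch on lysosomal genes through a DNA element with the core CACGTG. In the brain every cell type has lysosomes, neurons keep V-ATPase on synaptic vesicles as well, and microglia, the resident phagocytes, are rich in lysosomal enzymes.

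Total counts ranged from 1048201 to 5888102 per library. The GFP row of the table held 17 counts over the 21 libraries, with at most 4 in one of them, and gave no check of the genotype labels. All 7 striatum markers were lower in GA-Camk2a than in control cortex, and their summed level was 843 to 1360 CPM in controls and 239 to 554 CPM in GA-Camk2a libraries. Markers of the choroid plexus, the secretory epithelium of the ventricles, summed to 1807 to 32712 CPM in control hippocampus and to 1846 to 55527 CPM in GA-Camk2a hippocampus. They exceeded 20000 CPM in 5 hippocampus libraries, those of control mice 20 and 37 and of GA-Camk2a mice 16, 30 and 35. Rorb, a gene of thalamus and of a layer of cortex, also stood apart in hippocampus, at 86.6 to 1455 CPM in controls and 103 to 5303 CPM in GA-Camk2a libraries, with the highest values in GA-Camk2a mice 16 and 30. Hippocampus results are also given without the 5 libraries rich in choroid plexus markers, which include these mice but not control mouse 11, whose hippocampus library had the highest Rorb level of the controls. In GA-Camk2a cortex the highest Rorb level was 612 CPM, in mouse 41, and in control cortex it was 214 CPM.

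The promoters of the genes were read for the CACGTG core, and matches are described without a test. RefSeq promoter sequences of GRCm38.p6, from 250 bases before to 50 bases after the transcription start, matched 40 of the 46 genes. No match was found in the table for Asah1, Npc1, Laptm4b, Atp6v1b2, Atp6v1c1 and Atp6v1h. CACGTG, which reads the same on both strands, was present in 13 of the 40 genes (32.5%) and in 8.09% of all 27025 genes of the table. It occurred in 6 of 18 hydrolase genes, 4 of 10 pump genes and 3 of 7 membrane protein genes. The longer palindrome TCACGTGA, which contains CACGTG, was found in Cln3, Mcoln1, Gla, Atp6v0d1, Atp6v0e and Atp6v1a (15% of the 40) and in 1.12% of all genes. Stretches of 100 bases from the part upstream of the start are shown for 3 genes that rose in GA-Camk2a cortex and have the core, for 2 pump genes that have it and were not called higher, and for Laptm5, whose rise was the largest of the set and which has none. The genes shown were picked with the results known. Atp6v0e, the pump gene called higher in cortex, has its match after the start and is not shown. Capitals mark CACGTG, and the sequences run 5′ to 3′ on the strand of the gene.
Lamp1 (chr8:13159061-13159160, plus strand): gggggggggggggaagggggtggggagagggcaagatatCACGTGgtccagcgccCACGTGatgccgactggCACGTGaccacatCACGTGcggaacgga
Cln3 (chr7:126583316-126583415, minus strand): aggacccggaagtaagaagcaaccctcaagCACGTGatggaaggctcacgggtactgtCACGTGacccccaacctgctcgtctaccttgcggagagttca
Naglu (chr11:101069994-101070093, plus strand): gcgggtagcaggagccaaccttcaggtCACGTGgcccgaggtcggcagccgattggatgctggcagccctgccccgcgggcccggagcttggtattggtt
Atp6v0b (chr4:117887330-117887429, minus strand): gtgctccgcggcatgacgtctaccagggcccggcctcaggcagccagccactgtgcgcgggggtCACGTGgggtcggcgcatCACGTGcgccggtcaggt
Atp6v1a (chr16:44139321-44139420, minus strand): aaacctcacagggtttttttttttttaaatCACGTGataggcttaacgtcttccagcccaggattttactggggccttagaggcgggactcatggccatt
Laptm5 (chr4:130913216-130913315, plus strand): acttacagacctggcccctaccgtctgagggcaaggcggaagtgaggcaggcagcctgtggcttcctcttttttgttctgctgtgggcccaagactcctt
The stretch of Lamp1 holds 4 copies close to the start, those of Cln3 and Atp6v0b hold 2 each, and those of Naglu and Atp6v1a hold 1 each. Of the genes called higher in at least one tissue, 6 of 13 with a promoter sequence had the core, and of the genes not called higher 7 of 27 had it. A match describes these letters and not binding of a factor.

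Several enzymes and membrane proteins of the lysosome rose in GA-Camk2a mice in both tissues, while Atp6v0e in cortex was the 1 pump gene called higher. In the cortex 13 of the 45 genes tested were higher and 1 was lower at an adjusted p under 0.05 (edgeR quasi-likelihood test, adjusted over all genes). Of all 13058 genes tested in cortex, 12.5% were called, 6.35% higher and 6.17% lower. In the hippocampus 12 of 46 genes were higher and 2 were lower, against 10.9% of all 14884 genes called, 4.97% higher and 5.97% lower. The same 10 genes were higher in both tissues: Lamp1, Lamp2, Scarb2, Laptm5, Cln3, Npc2, Hexa, Man2b1, Gusb and Lgmn. Gaa, Naglu and Atp6v0e were called higher in cortex alone, and Npc1 and Asah1 in hippocampus alone. Idua had too few counts to be tested in cortex. For 9 of the 45 genes in cortex every GA-Camk2a library lay above every control (3.5% of all genes tested did), and for 1 below (2.67%). In hippocampus this held for 15 of 46 genes above (5.6% of all genes) and 3 below (4.02%). In a bulk library, fewer cells of a type and less RNA per cell cannot be told apart.

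Hydrolases and pump had medians of opposite sign in both tissues. In cortex 6 of 18 hydrolases were called higher and 1 lower, with a median log2 fold change of 0.25, while 1 of 13 pump genes was called higher and 0 lower, with a median of -0.08. The median of all genes tested was -0.01 there. In hippocampus 5 of 19 hydrolases were called higher, with a median of 0.27, and 2 of 13 pump genes were called lower, with a median of -0.22, beside 0.02 for all genes. At an unadjusted p under 0.05 in edgeR, the pump had 1 gene above and 2 below control level in cortex. In hippocampus it had 1 above and 9 below. Over all genes tested, 3388 of 13058 in cortex and 3682 of 14884 in hippocampus passed that p in either direction. DESeq2 and limma-voom likewise called 0 pump genes lower in cortex and 2 in hippocampus, but both hippocampus calls were lost without the batch term and with upper quartile factors. With the replicates of a single batch, the median log2 fold change of the hydrolases was 0.25 in batch 1 and 0.23 in batch 2 of the cortex, and 0.23 and 0.35 in the hippocampus. That of the pump was -0.08 and -0.06 in the cortex, and -0.20 in either batch of the hippocampus. Without the 5 hippocampus libraries rich in choroid plexus markers, the medians were 0.27 for hydrolases and -0.19 for the pump, and with 2 control and 3 GA-Camk2a libraries left 3 of the 46 genes were called, Laptm5, Lgmn and Atp6v0e, all higher. The 12 genes called higher in hippocampus had estimates from 0.27 (Asah1) to 1.14 (Laptm5) without these libraries, and Atp6v0b and Atp6v1b2 had -0.35 and -0.27. With the choroid plexus level as a covariate, 15 of the 46 genes were called in hippocampus, 14 higher and 1 lower, and 12 in cortex.

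**Figure D1:**
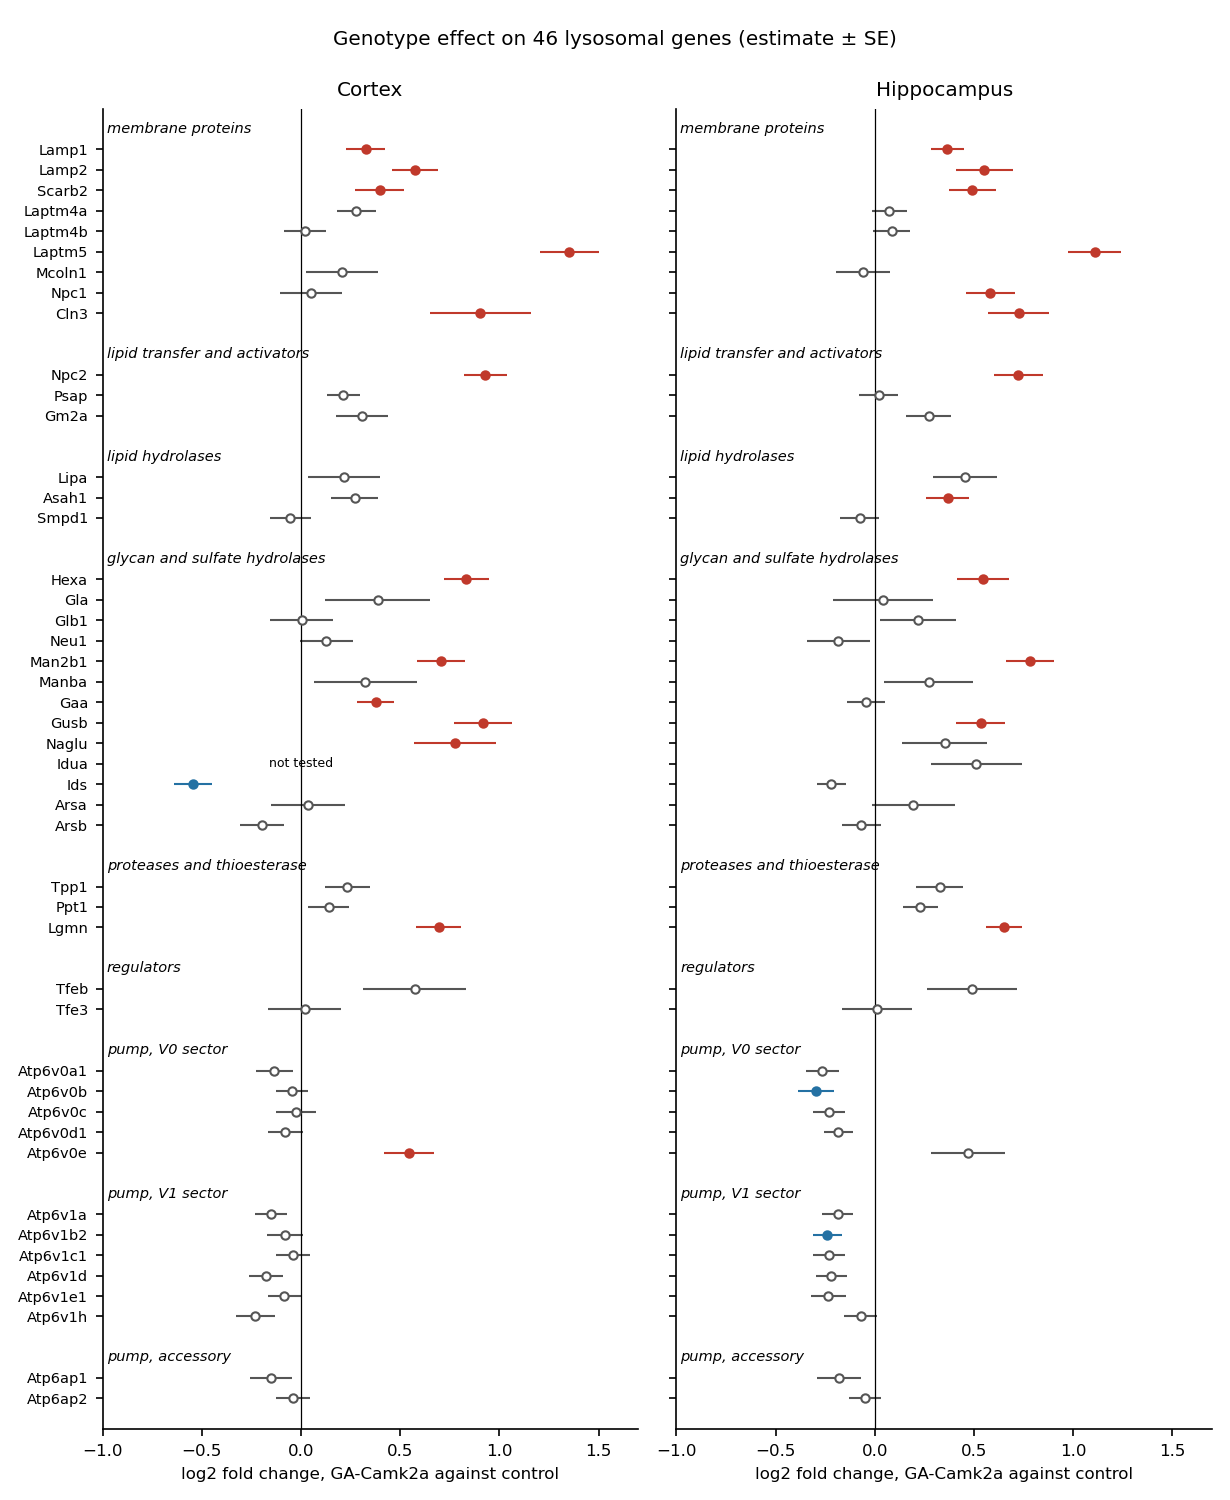
Log2 fold change of GA-Camk2a against control libraries in cortex (left) and hippocampus (right) for the 46 genes, with points and bars for the estimate ± SE of the edgeR fit. Filled red points were called higher and filled blue points lower at an adjusted p under 0.05, and open points were not called. Most enzymes and membrane proteins lie right of 0, and 12 of the 13 pump genes lie left of it in each tissue.

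Among the 9 membrane proteins, 5 were called higher in cortex and 6 in hippocampus, and 0 were lower. The cortex count was 3 without the filter or with the choroid plexus covariate, 2 of 8 tested with thinned counts, 2 in batch 1 and 1 in batch 2, and the hippocampus count was 4 without the filter, 0 in batch 1, 2 in batch 2 and 1 without the libraries rich in choroid plexus markers. Laptm5 (ENSMUSG00000028581), a lysosomal transmembrane protein of haematopoietic cells and microglia, rose most. Its level was 14.3, 12.7, 18.7, 11.6 and 16.6 CPM in the 5 control cortex libraries and 31.5 to 46.2 CPM with a median of 38.7 CPM in the 6 GA-Camk2a libraries. In hippocampus it was 14.3, 13.6, 14.8 and 11.6 CPM in controls and 21.98 to 38.7 CPM with a median of 30.8 CPM in GA-Camk2a mice. Every GA-Camk2a library exceeded every control library in each tissue, and the controls of the tissues overlapped. This gave a log2 fold change of 1.35 ± 0.15 (SE, adjusted p = 1.72e-06) in cortex and 1.11 ± 0.14 (SE, adjusted p = 9.92e-05) in hippocampus. This call was kept in all leave-one-out fits of both tissues.

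Cln3 (ENSMUSG00000030720) encodes a multispanning lysosomal membrane protein mutated in juvenile Batten disease. Its level was 4.77, 3.63, 7.33, 3.54 and 8.59 CPM in control cortex and 8.10 to 17.1 CPM with a median of 11.6 CPM in GA-Camk2a cortex. Its hippocampus level was 8.12, 8.83, 9.69 and 9.80 CPM in controls and 13.8 to 17.02 CPM with a median of 15.8 CPM in GA-Camk2a mice. The groups overlapped in cortex, where 5 of 6 GA-Camk2a libraries lay above all controls, and did not overlap in hippocampus. On the log2 scale the difference was 0.90 ± 0.25 (SE, adjusted p = 0.0216) in cortex, on few counts per library, and 0.73 ± 0.15 (SE, adjusted p = 0.00602) in hippocampus. The call in cortex was lost without control mouse 31 (adjusted p = 0.0547) or control mouse 37 (0.0676), and with the choroid plexus level as a covariate (0.0578).

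Lamp1 and Lamp2, the abundant glycoproteins of the lysosomal wall, rose by less. Lamp1 ranged over 98.2 to 141 CPM in control and 144 to 164 CPM in GA-Camk2a cortex, and over 109 to 120.2 CPM and 137 to 183 CPM in hippocampus. The log2 fold change of Lamp1 was 0.33 ± 0.10 (SE, adjusted p = 0.0331) in cortex and 0.37 ± 0.08 (SE, adjusted p = 0.00948) in hippocampus, with no overlap of the groups in either tissue. Its call was lost in cortex without control mouse 31 or 37 or GA-Camk2a mouse 16, 23 or 35 (adjusted p 0.055 to 0.109), and in hippocampus without control mouse 31 (0.060). Lamp2 ranged over 52.7 to 63.02 CPM in control and 66.5 to 105 CPM in GA-Camk2a cortex, and over 58.7 to 93.9 CPM and 104 to 157 CPM in hippocampus. Its log2 fold change was 0.57 ± 0.12 (SE, adjusted p = 0.0018) in cortex, kept without any single library, and 0.55 ± 0.14 (SE, adjusted p = 0.021) in hippocampus, lost without control mouse 11 (0.0831) or 31 (0.0958). With the choroid plexus level as a covariate the hippocampus estimate of Lamp2 was 0.55 (adjusted p = 0.000992). Scarb2, also known as LIMP-2 and the receptor that carries glucocerebrosidase to lysosomes, had log2 fold changes of 0.40 ± 0.12 (SE, adjusted p = 0.0389) in cortex and 0.49 ± 0.12 (SE, adjusted p = 0.0129) in hippocampus. In cortex 3 of 6 GA-Camk2a libraries lay above all controls for Scarb2, and in hippocampus all 6 did. Its cortex call was lost without control mouse 11, 20 or 38 or GA-Camk2a mouse 16, 30 or 34 (adjusted p 0.0616 to 0.0999) and with the choroid plexus level as a covariate (0.0673), and its hippocampus call without control mouse 20 (0.0793) or 37 (0.0505).

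Npc1, the cholesterol exporter of the lysosomal membrane, was higher in hippocampus, where controls had 26.6, 20.4, 20.5 and 19.8 CPM and GA-Camk2a libraries 28.98 to 42.03 CPM with a median of 32.5 CPM. These groups did not overlap, and the log2 fold change was 0.58 ± 0.12 (SE, adjusted p = 0.00671). In cortex it was 0.05 ± 0.16 (SE, adjusted p = 0.928), and the groups overlapped broadly. Laptm4a, a small transmembrane transporter-like protein, had log2 fold changes of 0.28 ± 0.10 (SE, adjusted p = 0.0695) in cortex and 0.07 ± 0.09 (SE, adjusted p = 0.672) in hippocampus and was not called. In cortex it passed the threshold without control mouse 11 (adjusted p = 0.0456) or GA-Camk2a mouse 35 (0.045). Its relative Laptm4b and the calcium channel gene Mcoln1 were not called in either tissue, and Mcoln1, which has 2 copies of the core in its promoter, stood at 0.21 ± 0.18 (SE, adjusted p = 0.51) in cortex.

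Npc2 (ENSMUSG00000021242), the soluble protein that hands cholesterol to NPC1 in the lysosomal lumen, rose in both tissues. Its level was 42.9, 62.7, 52.8, 52.1 and 57.1 CPM in control cortex and 90.4 to 120.4 CPM with a median of 97.3 CPM in GA-Camk2a cortex. In hippocampus it was 60.1, 67.8, 56.4 and 57.7 CPM in controls and 78.1 to 114 CPM with a median of 109.8 CPM in GA-Camk2a mice. No GA-Camk2a library overlapped a control in its tissue. The log2 fold change was 0.93 ± 0.11 (SE, adjusted p = 3.9e-06) in cortex and 0.72 ± 0.12 (SE, adjusted p = 0.00144) in hippocampus, and both calls were kept without any single library. Psap, the precursor of the saposins that present sphingolipids to their hydrolases, stood at 0.21 ± 0.08 (SE, adjusted p = 0.104) in cortex and 0.02 ± 0.10 (SE, adjusted p = 0.937) in hippocampus. Gm2a, the activator that lifts GM2 ganglioside to hexosaminidase A, stood at 0.31 ± 0.13 (SE, adjusted p = 0.133) and 0.27 ± 0.11 (SE, adjusted p = 0.148). Neither was called, although the GA-Camk2a libraries lay above all controls for Gm2a in hippocampus. In cortex Gm2a passed the threshold without GA-Camk2a mouse 35 (adjusted p = 0.0148) or 41 (0.0464).

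Of the 19 hydrolases, 13 act on glycans or on their sulfates. In cortex 5 of 12 of these tested were called higher and 1 lower, and in hippocampus 3 of 13 were higher. Of the 3 lipid hydrolases, 0 were called in cortex and 1 was higher in hippocampus. Of Tpp1, Ppt1 and Lgmn, 1 was higher in each tissue. Among all genes tested, 6.35% were called higher in cortex and 4.97% in hippocampus. Gusb (ENSMUSG00000025534), beta-glucuronidase, had 17.2, 15.4, 16.9, 11.6 and 19.1 CPM in control cortex and 25.6 to 35.3 CPM with a median of 30.6 CPM in GA-Camk2a cortex. Its hippocampus level was 20.1, 19.4, 18.8 and 18.2 CPM in controls and 24.98 to 34.02 CPM with a median of 28.02 CPM in GA-Camk2a mice. The groups did not overlap in either tissue. This gave a log2 fold change of 0.92 ± 0.14 (SE, adjusted p = 0.000154) in cortex and 0.53 ± 0.12 (SE, adjusted p = 0.0114) in hippocampus, and both calls were kept without any single library.

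Man2b1 (ENSMUSG00000005142), lysosomal alpha-mannosidase, had 32.4, 21.8, 27.5, 23.3 and 25.5 CPM in control and 40.2 to 45.4 CPM with a median of 40.7 CPM in GA-Camk2a cortex. In hippocampus it had 37.7, 28.7, 27.4 and 34.9 CPM in controls and 42.03 to 67.4 CPM with a median of 57.6 CPM in GA-Camk2a mice. All GA-Camk2a libraries were above all controls in both tissues. On the log2 scale the difference was 0.71 ± 0.12 (SE, adjusted p = 0.000344) in cortex and 0.78 ± 0.12 (SE, adjusted p = 0.000741) in hippocampus, kept without any single library.

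Hexa, the alpha subunit of hexosaminidase A, ranged over 29.6 to 42.7 CPM in control and 54.8 to 74.7 CPM in GA-Camk2a cortex, and over 34.2 to 47.7 CPM and 51.4 to 79.4 CPM in hippocampus. Neither tissue showed overlap. Its log2 fold change was 0.83 ± 0.11 (SE, adjusted p = 3.1e-05) in cortex, kept in all leave-one-out fits, and 0.54 ± 0.13 (SE, adjusted p = 0.015) in hippocampus, lost without control mouse 20 (0.0647) or 31 (0.0715). Lgmn, the cysteine protease legumain that matures cathepsins, ranged over 107 to 146 CPM in control and 166 to 241 CPM in GA-Camk2a cortex, and over 97.4 to 121 CPM and 155 to 204 CPM in hippocampus. Its log2 fold change was 0.69 ± 0.11 (SE, adjusted p = 0.000222) in cortex and 0.65 ± 0.09 (SE, adjusted p = 0.000347) in hippocampus, with no overlap and with both calls kept without any single library.

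**Figure D2:**
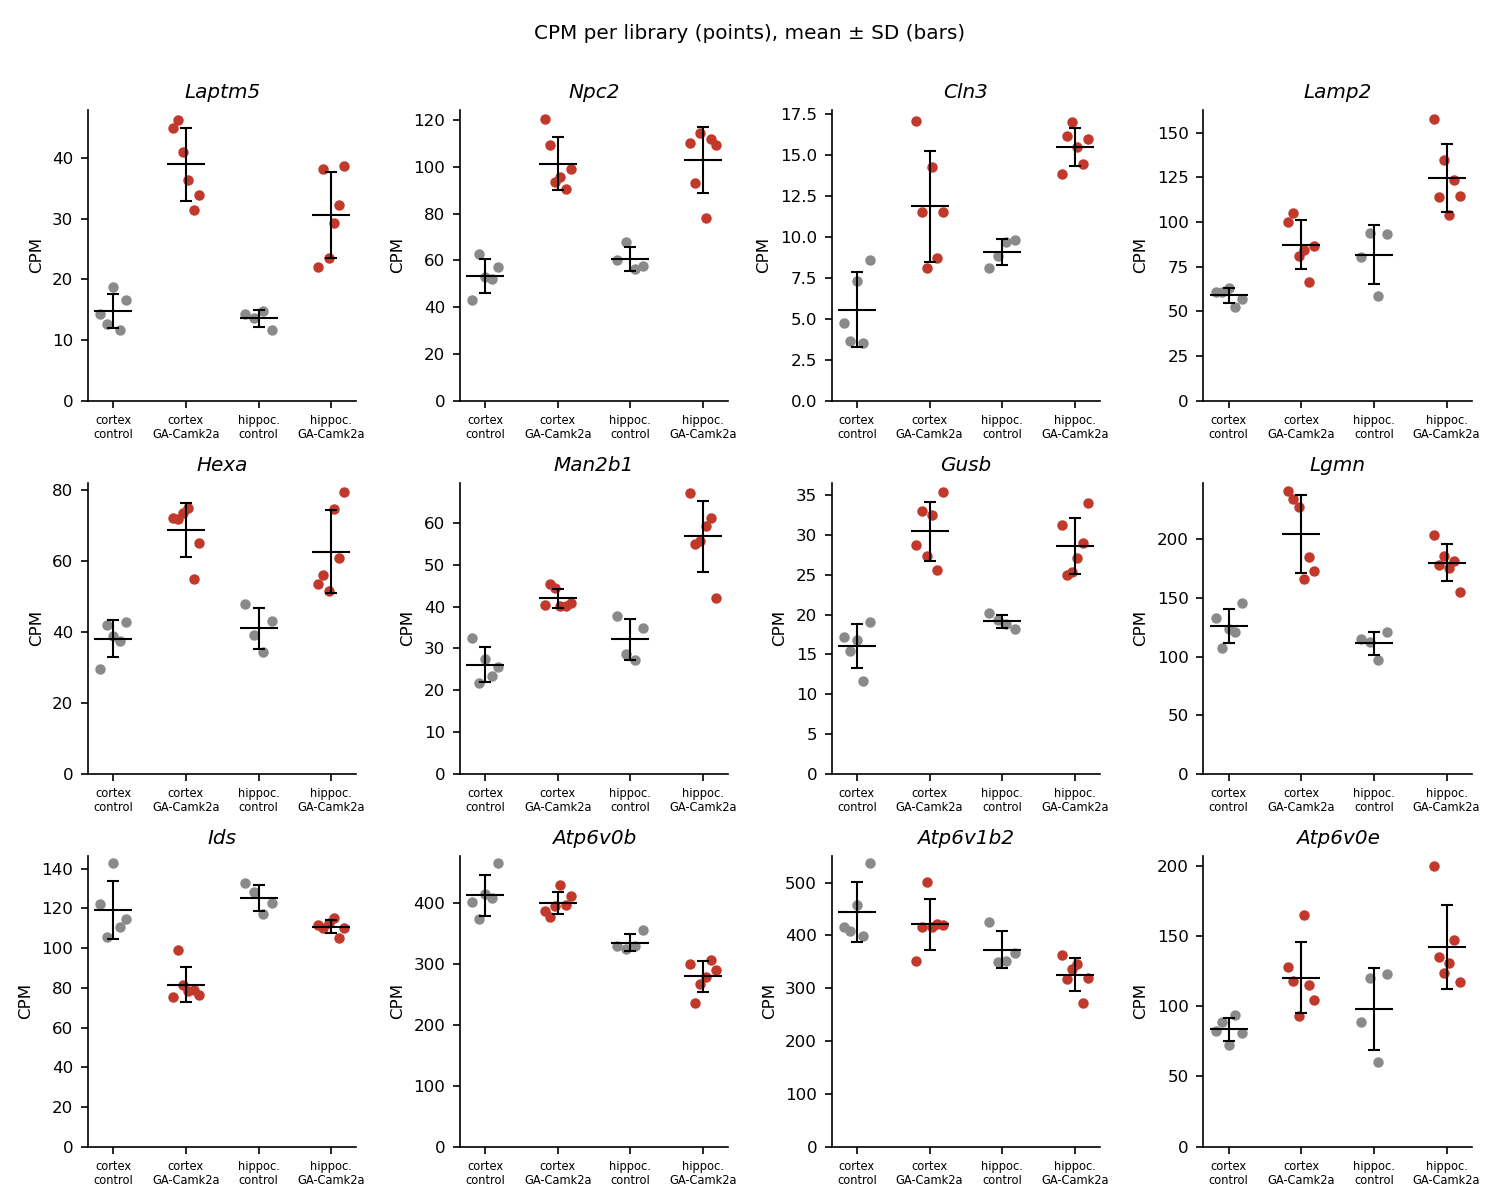
CPM of 12 of the genes in each library, with grey points for control and red points for GA-Camk2a libraries of cortex and hippocampus (hippoc.), and black bars for the group mean ± SD. The vertical axes start at 0. In the top and middle rows the GA-Camk2a points lie above the control points of their tissue, with overlap for Cln3 in cortex, and in the bottom row Ids, Atp6v0b and Atp6v1b2 lie lower or level while Atp6v0e lies higher with overlap.

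Gaa, acid alpha-glucosidase, which degrades glycogen, was called higher in cortex, at 0.38 ± 0.09 (SE, adjusted p = 0.0105), where 135 to 177 CPM in controls did not overlap 179.8 to 227 CPM in GA-Camk2a mice. In hippocampus it stood at -0.04 ± 0.10 (SE, adjusted p = 0.829). Naglu, an enzyme of heparan sulfate degradation, was called higher in cortex, at 0.78 ± 0.21 (SE, adjusted p = 0.0144), on levels of 2.72 to 8.59 CPM in controls and 8.09 to 13.6 CPM in GA-Camk2a mice, and stood at 0.35 ± 0.21 (SE, adjusted p = 0.335) in hippocampus. Asah1, acid ceramidase, was called higher in hippocampus, at 0.37 ± 0.11 (SE, adjusted p = 0.0404), and stood at 0.27 ± 0.12 (SE, adjusted p = 0.149) in cortex. The hippocampus call of Asah1 was kept only without GA-Camk2a mouse 30 or 34 and was lost without any other single library (adjusted p 0.0547 to 0.134).

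Ids (ENSMUSG00000035847), iduronate 2-sulfatase, which removes sulfate from heparan and dermatan sulfate, was the 1 hydrolase called lower. Its level was 122, 105, 143, 111 and 114 CPM in control cortex and 75.5 to 99.1 CPM with a median of 78.6 CPM in GA-Camk2a cortex. Its hippocampus level was 133, 128, 117 and 123 CPM in controls and 105 to 115 CPM with a median of 111 CPM in GA-Camk2a mice. The groups did not overlap in either tissue, with GA-Camk2a lower. The log2 fold change was -0.54 ± 0.10 (SE, adjusted p = 0.000573) in cortex, kept without any single library, and -0.22 ± 0.07 (SE, adjusted p = 0.0685) in hippocampus, where it was not called.

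The other hydrolases were not called in either tissue. Lipa, which hydrolyses cholesteryl esters and triglycerides, stood at 0.22 ± 0.18 (SE, adjusted p = 0.486) in cortex and 0.46 ± 0.16 (SE, adjusted p = 0.0881) in hippocampus. The tripeptidyl peptidase Tpp1 stood at 0.23 ± 0.11 (SE, adjusted p = 0.2) and 0.33 ± 0.12 (SE, adjusted p = 0.0938), and the thioesterase Ppt1 at 0.14 ± 0.10 (SE, adjusted p = 0.428) and 0.23 ± 0.09 (SE, adjusted p = 0.117). The hippocampus groups did not overlap for Lipa and Ppt1, and the Tpp1 result there passed the threshold without GA-Camk2a mouse 23 (0.0463). Idua, which acts next to Ids on the same glycosaminoglycans, stood at 0.51 ± 0.23 (SE, adjusted p = 0.184) in hippocampus. Glb1, Neu1, Gla, Manba, Arsa, Arsb and Smpd1, which act on galactosides, sialic acid, mannosides, sulfates and sphingomyelin, had cortex estimates from -0.20 (Arsb) to 0.39 (Gla) and hippocampus estimates from -0.18 (Neu1) to 0.27 (Manba). Gla, Manba and Idua had at most 14.7 CPM in any library and wide errors, as for Gla in cortex (0.39 ± 0.27).

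Tfeb and Tfe3 differed in their estimates but neither was called. Tfeb had 6.68, 6.36, 4.76, 7.09 and 4.16 CPM in control and 5.60 to 10.7 CPM with a median of 7.49 CPM in GA-Camk2a cortex. In hippocampus it had 4.87, 4.76, 8.55 and 7.98 CPM in controls and 7.25 to 10.8 CPM with a median of 9.12 CPM in GA-Camk2a mice. The groups overlapped in both tissues, with 4 of 6 GA-Camk2a libraries above all controls in each. This gave a log2 fold change of 0.57 ± 0.26 (SE, adjusted p = 0.162) in cortex and 0.49 ± 0.23 (SE, adjusted p = 0.198) in hippocampus. Tfe3 had 15.3, 10.9, 18.3, 11.6 and 13.3 CPM in control and 9.91 to 18.9 CPM with a median of 14.5 CPM in GA-Camk2a cortex. Its hippocampus level was 14.9, 12.4, 14.2 and 16.4 CPM in controls and 7.80 to 18.4 CPM with a median of 16.1 CPM in GA-Camk2a mice. The ranges of Tfe3 overlapped broadly, and its log2 fold change was 0.02 ± 0.18 (SE, adjusted p = 0.972) in cortex and 0.01 ± 0.18 (SE, adjusted p = 0.985) in hippocampus. Factor activity set by location in the cell was not measured.

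The V-ATPase has a membrane sector, V0, through which protons pass, and a cytosolic sector, V1, which hydrolyses ATP. In cortex 12 of 13 pump genes had estimates below 0, none of them called, from -0.23 (Atp6v1h) to -0.02 (Atp6v0c). In hippocampus the same 12 genes lay below 0, from -0.30 (Atp6v0b) to -0.05 (Atp6ap2), and 2 were called. The cortex estimates of Atp6v0a1, Atp6v0b, Atp6v0c, Atp6v1c1 and Atp6ap2 turned above 0 under at least one alternative, and that of Atp6v1h in hippocampus did so as well.

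Atp6v0b, a subunit of the proton-conducting ring, had 402, 372, 414, 408 and 465 CPM in control and 377 to 429 CPM with a median of 395 CPM in GA-Camk2a cortex. In hippocampus it had 329, 324, 329 and 354 CPM in controls and 235 to 305 CPM with a median of 284 CPM in GA-Camk2a mice. All GA-Camk2a hippocampus libraries were below all controls, while the cortex groups overlapped. On the log2 scale the difference was -0.05 ± 0.08 (SE, adjusted p = 0.774) in cortex and -0.30 ± 0.09 (SE, adjusted p = 0.0474) in hippocampus. The hippocampus call was kept only without GA-Camk2a mouse 16 or 35 and was lost without any other single library (adjusted p 0.0665 to 0.122), without the batch term and with upper quartile factors. Its main ring partner Atp6v0c showed the same separation in hippocampus, at -0.23 ± 0.08 (SE, adjusted p = 0.0771), and passed the threshold only without GA-Camk2a mouse 35 (0.0457).

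Atp6v1b2, the nucleotide-binding B subunit used in brain, had 416, 409, 457, 399 and 537 CPM in control and 351 to 501 CPM with a median of 418 CPM in GA-Camk2a cortex. Its hippocampus level was 425, 349, 352 and 366 CPM in controls and 273 to 362 CPM with a median of 328 CPM in GA-Camk2a mice. In hippocampus 5 of 6 GA-Camk2a libraries were below all controls. The log2 fold change was -0.08 ± 0.09 (SE, adjusted p = 0.615) in cortex and -0.24 ± 0.07 (SE, adjusted p = 0.0478) in hippocampus. The hippocampus call was kept only without control mouse 37 or GA-Camk2a mouse 16 (adjusted p 0.0598 to 0.134 without any other library). It was also lost with the choroid plexus level as a covariate (0.0507), without the batch term and with upper quartile factors.

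Of the other V1 genes, Atp6v1a, the catalytic subunit, stood at -0.15 ± 0.08 in cortex and -0.19 ± 0.08 in hippocampus (log2 fold change ± SE). The stalk subunits Atp6v1c1, Atp6v1d and Atp6v1e1 stood at -0.04 ± 0.09, -0.18 ± 0.09 and -0.08 ± 0.08 in cortex. In hippocampus they stood at -0.23 ± 0.08, -0.22 ± 0.08 and -0.23 ± 0.09, with adjusted p between 0.0805 and 0.101. Atp6v1h, which restrains ATP hydrolysis when the sectors part, stood at -0.23 ± 0.10 in cortex and -0.07 ± 0.08 in hippocampus. Of the V0 genes, Atp6v0a1 and Atp6v0d1 stood at -0.13 ± 0.09 and -0.08 ± 0.09 in cortex and at -0.27 ± 0.08 and -0.18 ± 0.07 in hippocampus. The accessory subunits Atp6ap1 and Atp6ap2 stood at -0.15 ± 0.11 and -0.04 ± 0.08 in cortex and at -0.18 ± 0.11 and -0.05 ± 0.08 in hippocampus. Without single libraries a few of these passed the threshold: Atp6v1h in cortex without control mouse 31 (0.0217), and in hippocampus Atp6v1c1 without GA-Camk2a mouse 34 (0.0211), Atp6v1e1 without mouse 35 (0.0404) and Atp6v0a1 without mouse 30 (0.0418) or 35 (0.047).

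Atp6v0e, a small V0 subunit found in most tissues, was the exception among the 13 pump genes of the set. Its level was 82.05, 89.01, 72.5, 93.7 and 80.6 CPM in control and 92.7 to 165 CPM with a median of 116 CPM in GA-Camk2a cortex. In hippocampus it was 88.99, 119.9, 60.4 and 123 CPM in controls and 117 to 199.9 CPM with a median of 133 CPM in GA-Camk2a mice. In each tissue 5 of 6 GA-Camk2a libraries exceeded all controls. This gave a log2 fold change of 0.54 ± 0.13 (SE, adjusted p = 0.00615) in cortex, kept without any single library, and 0.47 ± 0.19 (SE, adjusted p = 0.126) in hippocampus. The lowest hippocampus control was the library of mouse 31, the control library with the lowest choroid plexus level. With the choroid plexus level as a covariate the hippocampus estimate was 0.47 (adjusted p = 0.0283), and without the 5 libraries rich in these markers it was 0.75 (0.0222).

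Averaged over genes, the hydrolases separated the genotypes and the pump did so in part. The mean log2 CPM of the 19 hydrolases was 4.90 ± 0.0855 (SD, n = 5) in control cortex and 5.20 ± 0.0814 (SD, n = 6) in GA-Camk2a cortex. In hippocampus it was 4.96 ± 0.0991 (SD, n = 4) and 5.19 ± 0.0911 (SD, n = 6). The ranges did not overlap in either tissue but lay close to each other. They were 4.8 to 5.035 in control and 5.068 to 5.303 in GA-Camk2a cortex. In hippocampus they were 4.827 to 5.0365 and 5.0427 to 5.291. No test was run because the genes were chosen with results known. The mean over the 13 pump genes was 8.10 ± 0.0803 in control and 8.05 ± 0.0380 in GA-Camk2a cortex, with overlap. In hippocampus it was 7.90 ± 0.0731 and 7.74 ± 0.0763, and 4 of 6 GA-Camk2a libraries lay below all controls. The difference of hydrolases and pump within a library was -3.30 to -3.12 in control cortex and -3.01 to -2.76 in GA-Camk2a cortex. In hippocampus it was -2.98 to -2.90 in controls and -2.66 to -2.41 in GA-Camk2a mice. All 6 GA-Camk2a libraries of each tissue lay above all controls of that tissue. The shift of this difference was 0.34 in batch 1 and 0.35 in batch 2 of the cortex, and 0.33 and 0.46 in the hippocampus.

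**Figure D3:**
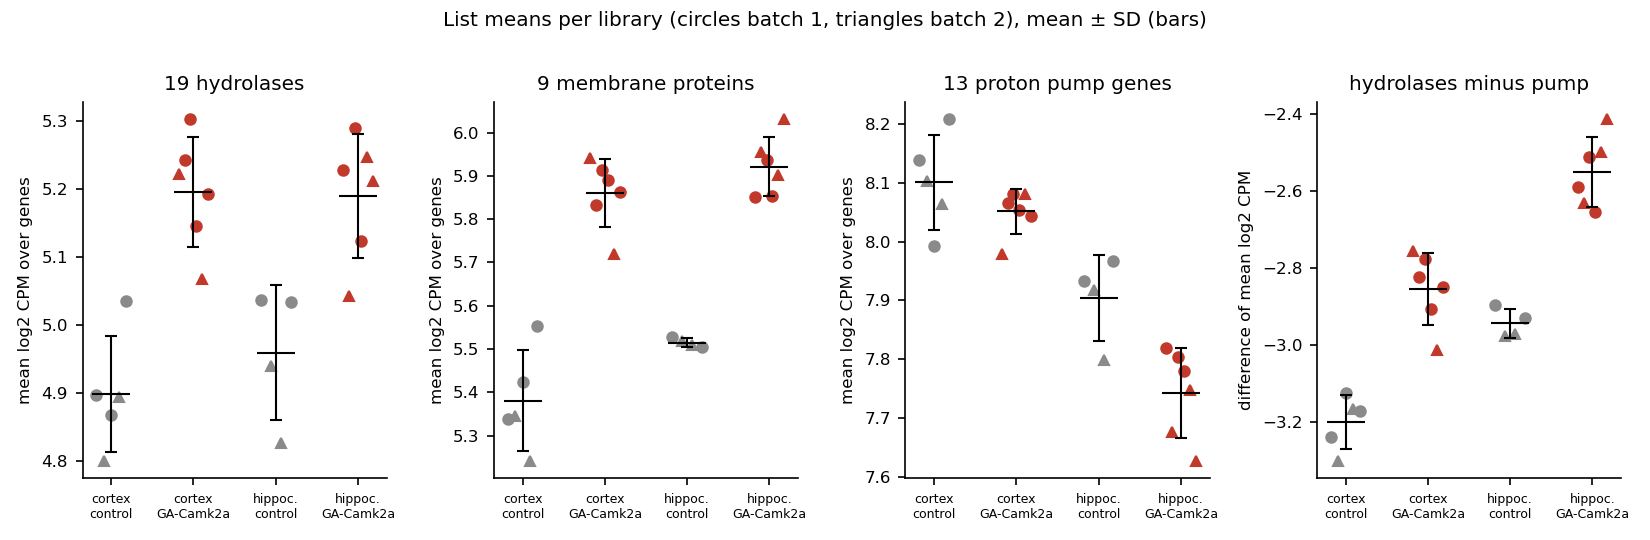
Mean log2 CPM per library over the hydrolases, the membrane proteins and the proton pump genes, and the difference of hydrolases and pump, with circles for batch 1, triangles for batch 2 and black bars for the group mean ± SD. Grey points are control and red points GA-Camk2a libraries of cortex and hippocampus (hippoc.), and the vertical axes do not start at 0. The hydrolase and membrane protein means are higher in GA-Camk2a mice, the pump mean is not, and the difference separates the genotypes in both tissues.

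Whether the genotype effect differed between the tissues was tested as an interaction over all 21 libraries. None of the 46 genes was called in edgeR, and DESeq2 and limma-voom also called 0, against 0.4% of all 14751 genes. At an unadjusted p under 0.05 in edgeR there were 5 of the 46 genes, Gaa, Ids, Npc1, Atp6v0b and Gusb. This share was near that of all genes, 1479 of 14751. The effect in hippocampus minus that in cortex was -0.43 ± 0.13 (SE, adjusted p = 0.196) for Gaa, 0.30 ± 0.11 (SE, adjusted p = 0.308) for Ids and 0.50 ± 0.19 (SE, adjusted p = 0.325) for Npc1 on the log2 scale. For Atp6v0b and Gusb it was -0.27 and -0.41. The genes called in a single tissue are therefore not shown to respond differently in the tissues. With mouse as a replicate block, which pairs the tissues of a mouse, 0 genes were called as well, and the lowest adjusted p was 0.225, for Gaa.

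Other lysosomal genes outside the set were read in the same fits, in which 6.35% of all genes were called higher and 6.17% lower in cortex, and 4.97% and 5.97% in hippocampus. Of 19 further hydrolases, 15 were tested in cortex, where 5 were called higher, and 16 in hippocampus, where 7 were called higher and none lower. The serine carboxypeptidase Scpep1 had 11.05 ± 2.55 CPM (SD, n = 4) in control and 25.2 ± 1.71 CPM (SD, n = 6) in GA-Camk2a hippocampus, a log2 fold change of 1.09 ± 0.15 (SE, adjusted p = 0.000242). Naaa, which degrades N-acylethanolamines, rose in both tissues, by 0.70 ± 0.15 (SE, adjusted p = 0.00251) in cortex and 0.77 ± 0.12 (SE, adjusted p = 0.000701) in hippocampus. Dnase2a, the lysosomal DNase, was called in hippocampus, at 0.83 ± 0.22 (SE, adjusted p = 0.0228), and Aga, which cleaves the glycan from asparagine, in cortex, at 0.79 ± 0.23 (SE, adjusted p = 0.0263). The Dnase2a call was lost without any 1 of 5 libraries, control mice 20, 31 and 37 and GA-Camk2a mice 16 and 35 (adjusted p 0.0536 to 0.0901), and the Aga call without any 1 of 6, control mice 20, 31 and 37 and GA-Camk2a mice 34, 35 and 41 (0.0509 to 0.0879).

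Of 12 further pump genes, 6 were tested in each tissue, and 0 were called in cortex, 1 higher and 2 lower in hippocampus. Their median log2 fold change was 0.06 in cortex, with 4 estimates above 0 and 2 below. In hippocampus it was 0.10, with 3 above 0 and 3 below. The pump medians below 0 therefore hold for the 13 pump genes of the set and not for these. Tcirg1, the a3 subunit of the pump typical of osteoclasts and phagocytes, was higher, at 0.95 ± 0.22 (SE, adjusted p = 0.0108). The neuronal isoforms Atp6v1g2 and Atp6v0e2 were lower, at -0.50 ± 0.08 (SE, adjusted p = 0.000819) and -0.38 ± 0.09 (SE, adjusted p = 0.0165), and the latter call was lost without control mouse 11 (0.0619). All GA-Camk2a libraries lay on 1 side of all controls for these 3 genes.

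Of 20 further membrane proteins, 16 were tested in cortex, with 3 higher and 1 lower, and 17 in hippocampus, with 2 higher. Cd68, a glycoprotein of phagocyte lysosomes, had 22.5 ± 4.37 CPM (SD, n = 5) in control and 83.2 ± 17.4 CPM (SD, n = 6) in GA-Camk2a cortex, and 17.5 ± 2.36 CPM (SD, n = 4) and 64.7 ± 14.2 CPM (SD, n = 6) in hippocampus. Its log2 fold change was 1.88 ± 0.16 (SE, adjusted p = 3.07e-08) in cortex and 1.84 ± 0.16 (SE, adjusted p = 7.93e-06) in hippocampus. The tetraspanin Cd63 rose as well, by 1.31 ± 0.13 (SE, adjusted p = 3.1e-07) and 1.09 ± 0.19 (SE, adjusted p = 0.0015). Cd164 was higher in cortex, at 0.41 ± 0.12 (SE, adjusted p = 0.0288), a call lost without control mouse 11, 20, 31 or 38 or GA-Camk2a mouse 16, 23 or 30 (adjusted p 0.0529 to 0.0715). Lamp5, the family member of cortical neurons, was lower in cortex, at -0.93 ± 0.13 (SE, adjusted p = 5.44e-05).

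Among 10 genes of enzyme sorting and maturation, of which 9 were tested in cortex, 2 were called higher and 1 lower in each tissue. Grn, the precursor of the lysosomal granulins, rose by 1.01 ± 0.13 (SE, adjusted p = 9.13e-06) in cortex and 0.86 ± 0.15 (SE, adjusted p = 0.00134) in hippocampus. Sumf1, which activates sulfatases, rose by 0.57 ± 0.18 (SE, adjusted p = 0.0421) and 0.66 ± 0.18 (SE, adjusted p = 0.0255), on calls lost in 8 of 11 and 7 of 10 leave-one-out fits (adjusted p 0.0508 to 0.123 where lost). They were kept in cortex without control mouse 20 or 38 or GA-Camk2a mouse 23, and in hippocampus without GA-Camk2a mouse 30, 34 or 41. Sort1, the receptor sortilin, fell, at -0.46 ± 0.12 (SE, adjusted p = 0.0162) and -0.47 ± 0.11 (SE, adjusted p = 0.0113). Its calls were lost in cortex without control mouse 31 (0.0802) and in hippocampus without control mouse 11 (0.0528) or 31 (0.0504). Of 13 genes of the mTORC1 platform on the lysosome, 12 were tested in each tissue, and 0 were called in hippocampus and 2 in cortex, Lamtor2 (higher) and Rragd (lower), a share near the 12.5% of all genes called there. Their log2 fold changes were 0.30 ± 0.09 (SE, adjusted p = 0.0373) and -0.42 ± 0.11 (SE, adjusted p = 0.0131). The Lamtor2 call was lost in 7 of 11 leave-one-out fits, those without a control mouse other than 38 or without GA-Camk2a mouse 30, 34 or 35 (0.0539 to 0.1), and the Rragd call without control mouse 31 (0.0551).

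Most markers of microglia, astrocytes and excitatory neurons moved with the genotype. Of all genes tested, 6.35% were called higher and 6.17% lower in cortex, and 4.97% and 5.97% in hippocampus. Of 10 microglia markers, 8 were called higher in each tissue. They summed to 489 to 550 CPM in control and 1305 to 2066 CPM in GA-Camk2a cortex, and to 424 to 517 CPM and 883 to 1423 CPM in hippocampus. Trem2 had the largest rise, 2.31 in cortex and 1.93 in hippocampus on the log2 scale. Of the 10 estimates, 9 were above 0 and 1 was below in each tissue. The lowest was -0.14 in cortex and -0.16 in hippocampus. P2ry12 overlapped between the groups, at 30.05 to 41.02 CPM in control and 32.9 to 49.4 CPM in GA-Camk2a cortex. In hippocampus P2ry12 had 33.05 to 39.3 CPM and 24.5 to 50.7 CPM. Tmem119 also overlapped, at 8.43 to 11.8 CPM and 4.66 to 12.6 CPM in cortex. Its hippocampus levels were 5.13 to 8.32 CPM and 6.69 to 14.7 CPM. Of 8 astrocyte markers, 5 were called higher in cortex and 6 in hippocampus, with sums of 2364 to 3206 CPM in control and 3461 to 5027 CPM in GA-Camk2a cortex and of 2863 to 3366 CPM and 4424 to 5982 CPM in hippocampus. Of 8 oligodendrocyte markers, 2 were called higher in cortex and 1 in hippocampus. Of 6 inhibitory neuron markers, 1 was called higher in cortex and 2 in hippocampus, among them Vip in both tissues, at 1.31 and 1.16. All 6 estimates were above 0 in cortex, while in hippocampus 5 were above and 1 was below. None of the 6 endothelium markers was called in either tissue. Of 6 monocyte and macrophage markers, 1 was tested in cortex and not called, and 2 were tested in hippocampus, where Mrc1 was called higher, at 2.05. Their sum was 13.3 to 14.8 CPM in control and 17.7 to 36.7 CPM in GA-Camk2a hippocampus. Of 8 excitatory neuron markers, 6 were called lower in each tissue. They summed to 2040 to 2533 CPM in control and 1295 to 1772 CPM in GA-Camk2a cortex, and to 2182 to 2752 CPM and 1181 to 1572 CPM in hippocampus. Of 5 markers of the hippocampus, Spink8 and Fibcd1 were called lower in hippocampus, at -1.57 and -1.05, and of 5 markers of the cortex 2 were called lower in cortex. No marker of these lists was at 0 in all libraries of a group. The part of these shifts in the rise of the lysosomal genes and in the level of the pump genes was not tested. The same holds for the striatum markers in cortex.

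**Figure D4:**
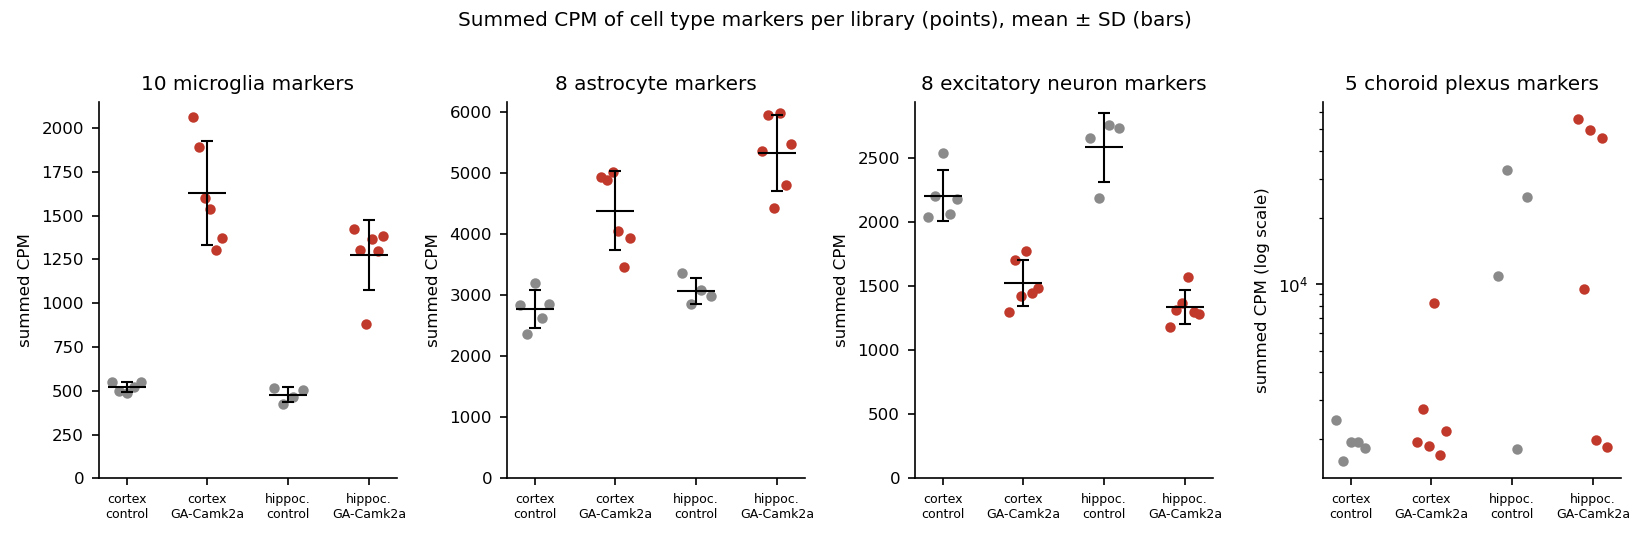
Summed CPM per library of markers of microglia, astrocytes, excitatory neurons and choroid plexus, with grey points for control and red points for GA-Camk2a libraries of cortex and hippocampus (hippoc.) and black bars for the group mean ± SD. The choroid plexus panel has a logarithmic axis and no bars. The sums of microglia and astrocyte markers are higher in every GA-Camk2a library than in the controls of its tissue. Those of excitatory neuron markers are lower, and those of choroid plexus markers vary within the hippocampus groups.

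The regional levels were compared in the 9 control libraries. Of the 46 genes, 7 were called, 2 higher and 5 lower in hippocampus, which is 15.2% of them beside 16.3% of all 14435 genes tested. None of the 19 hydrolases was called by edgeR, DESeq2 or limma-voom. At an unadjusted p under 0.05 in edgeR there were 3 hydrolases, beside 4382 of all 14435 genes. The calls lay with the pump, where 4 of 13 genes were lower in hippocampus and 1 was higher, beside 7.6% and 8.69% of all genes. Atp6v0b, Atp6v1d, Atp6v1e1 and Atp6v1h were lower, at -0.35 ± 0.09, -0.34 ± 0.10, -0.34 ± 0.10 and -0.37 ± 0.11 on the log2 scale (± SE), with adjusted p of 0.0154, 0.0236, 0.0237 and 0.0246. All 4 hippocampus controls lay below all 5 cortex controls for each of these and for 6 of the 46 genes in all (5.58% of all genes tested), and above them for 1 (8.15%). Atp6v1a was higher in hippocampus, at 0.30 ± 0.09 (SE, adjusted p = 0.0357), with 310.1, 323, 369.7, 316 and 361 CPM in control cortex and 487, 428, 375 and 411 CPM in control hippocampus. Psap was lower, at -0.37 ± 0.09 (SE, adjusted p = 0.0121), and Lamp2 higher, at 0.47 ± 0.13 (SE, adjusted p = 0.0229).

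Each of these 7 calls was lost without at least 1 library. Psap lost it without the hippocampus library of mouse 11 (adjusted p = 0.0825), Atp6v0b without that library or those of hippocampus of mouse 20 or cortex of mouse 37 (0.0513 to 0.0856), and Lamp2 without cortex of mouse 37 or 38 or hippocampus of mouse 20 or 37 (0.067 to 0.113). Atp6v1a, Atp6v1d, Atp6v1e1 and Atp6v1h lost it in 4 to 7 of 9 leave-one-out fits each, those without cortex of mouse 20 or hippocampus of mouse 11 among them (0.0523 to 0.164). The number of pump genes called lower ranged from 0 without the hippocampus library of mouse 11 to 9 without the cortex library of mouse 31, and was 1 or 2 without the cortex libraries of mice 11, 20, 37 and 38 or the hippocampus library of mouse 31. With mouse as a replicate block, 8 genes were called, 6 of them among the 7, with Atp6v1a lost and Atp6ap1 and Cln3 gained. Without the 2 hippocampus controls rich in choroid plexus markers, 2 of the 46 genes and 1 lower pump gene were called, and the estimate of Lamp2 was 0.21. The part of choroid plexus in the Lamp2 difference was not tested.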

How the data were processed

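RNA of cortex and hippocampus was measured by prime-seq in 21 libraries of 11 mice. The authors demultiplexed the reads, counted them per gene with zUMIs on GRCm39 (the table also has a GFP row), and deposited the values as whole-number counts, not normalized. Per the labels, the processing also used STAR, FastQC 0.11.8, cutadapt 1.12 and DESeq2 1.44. Whether molecular identifiers or reads were counted, the annotation release, and the use of introns and strand are not given in the sources used here. Genes that overlap others are therefore uncertain.

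The table held 64362 rows, of which the GFP row (3.38e-05% of counts) stayed out of library sizes and tests, and 0 columns were unused. Symbols came from a GENCODE annotation of GRCm38 matched on the Ensembl number. Promoters came from RefSeq on GRCm38.p6, and no coordinates were converted.

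Groups, mouse numbers and batches were taken from the labels. The labels were followed where the study's text gives the control libraries of each tissue in other numbers. Within each tissue, genotypes were compared with edgeR 4.0.16, run in R 4.3.3 (TMM, filterByExpr with a minimum count of 10, quasi-likelihood test, batch as covariate, Benjamini-Hochberg adjustment over all genes, threshold 0.05). The interaction over all libraries and the regions in controls were tested in the same way. The study's methods name DESeq2, which was run as an alternative in version 1.42.0, as was limma 3.58.1. For list means, log2 CPM values (prior count 2) were averaged over genes. Libraries of a group came from separate mice and all 46 pairs differed by more than sampling noise (chi-square per degree of freedom of 2.10 to 15.1). The tissues of a mouse share its number in the labels, which pairs them, and the correlation of their deviations from the group means was -0.23 to 0.28 over 10 mice. The fits were checked on simulated counts.

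The genes, the lists and the rule for named genes (all 46 genes, with full values for the 4 largest rises and falls called per tissue and the regulators, and up to 4 called genes of each further list) were chosen with earlier results of these data known. The other alternatives were other tools, scaling factors, no filter, no batch term, thinned counts, single batches and leaving out each library. The choroid plexus covariate and the fits without libraries rich in its markers were chosen after seeing the data.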

Additional observations from a re-analysis of the deposited data

Results flagged for a closer look

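Outlying libraries were sought on log2 CPM (TMM, prior count 2), while the levels below are plain CPM, on which the ratios differ. A library was set apart where its distance to the nearest library of its group, divided by the group range, passed Dixon's 95% limit. This was the case in 15 of 184 groups of a gene in a tissue and genotype, and chance sets apart about 1 in 20. Lamp1 stood above the rest of GA-Camk2a hippocampus in mouse 41, at 183 CPM against 137 to 155 CPM. In GA-Camk2a cortex the library of mouse 35 had 11.1 CPM of Glb1, below 17.5 to 20.8 CPM in the others. The Man2b1 level of mouse 11 in control cortex was 32.4 CPM, above the 21.8 to 27.5 CPM of the other libraries. Manba stood below the rest of GA-Camk2a cortex in mouse 35, at 4.08 CPM against 7.43 to 9.74 CPM. In GA-Camk2a cortex the library of mouse 16 had 8.09 CPM of Naglu, below 11.7 to 13.6 CPM in the others. The Naglu level of mouse 20 in control cortex was 2.72 CPM, below the 6.68 to 8.59 CPM of the other libraries. Ids stood above the rest of GA-Camk2a cortex in mouse 23, at 99.1 CPM against 75.5 to 81.5 CPM. In GA-Camk2a cortex the library of mouse 35 had 47.8 CPM of Tpp1, below 66.0 to 71.4 CPM in the others. The Tfe3 level of mouse 35 in GA-Camk2a hippocampus was 7.80 CPM, below the 14.2 to 18.4 CPM of the other libraries. Atp6v0a1 stood below the rest of control hippocampus in mouse 20, at 158 CPM against 190.3 to 199.7 CPM. In control cortex the library of mouse 31 had 225 CPM of Atp6v0c, below 269 to 314 CPM in the others. The Atp6v0d1 level of mouse 37 in control hippocampus was 308 CPM, above the 271 to 285 CPM of the other libraries. Atp6v1b2 stood above the rest of control cortex in mouse 38, at 537 CPM against 399 to 457 CPM. In GA-Camk2a cortex the library of mouse 30 had 498 CPM of Atp6v1e1, below 528 to 559 CPM in the others. The Atp6v1h level of mouse 35 in GA-Camk2a hippocampus was 129 CPM, below the 156 to 173 CPM of the other libraries. Of the 15, 5 came from the mouse 35 libraries of the GA-Camk2a group, all of them the lowest of their group.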

How the results depend on the processing

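The direction of the hydrolase and pump medians in both tissues held under all alternatives run. Counts of calls moved under several alternatives, and the cause was not tested. Single genes were followed for the 46 genes in each tissue, for those called or named in the other comparisons and for the called genes of the further lists. Of their values in alternatives other than leaving out 1 library, 1145 kept their direction and their side of the threshold, 164 lost a call, 8 gained one and 40 changed sign.

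With counts thinned to the smallest library, 1027 genes were called in cortex, 954 in hippocampus, 23 in the interaction and 1400 between regions. Of the lysosomal genes, 1 pump gene was then called in hippocampus and 4 genes between regions. Under thinning, 16 hydrolases in place of 19 were tested in hippocampus. Their median was 0.42 and its distance to the pump median 0.60. Without the filter, 159 genes were called in the interaction, 3 hydrolases and 5 pump genes in hippocampus, and 1 of the 46 genes but 0 lower pump genes between regions, and the hippocampus pump median was -0.29. Without the batch term, 36 genes were called in the interaction and 0 pump genes in hippocampus. Upper quartile factors also gave 0 pump genes in hippocampus. DESeq2 called 127 genes in the interaction, and DESeq2, limma-voom and median of ratios factors each called 7 lower pump genes between regions.

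Batch 1 alone gave 876 genes in cortex and 115 in hippocampus, with 9 of the lysosomal genes in cortex and 0 in hippocampus, 0 hydrolases and 0 pump genes included. Batch 2 alone gave 230 and 681 genes, with 3 lysosomal genes, 1 hydrolase and 0 pump genes in cortex and 6, 3 and 0 in hippocampus. The distance of the hippocampus medians was 0.43 in batch 1 and 0.55 in batch 2. Without the libraries rich in choroid plexus markers, hippocampus had 389 genes, 3 lysosomal genes, 1 hydrolase and 1 pump gene, and the regions had 2 lysosomal genes and 1 lower pump gene.

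Leaving out 1 library gave 1038 to 1526 genes in cortex, 1038 to 1831 in hippocampus, 22 to 66 in the interaction and 1580 to 3168 between regions. Lysosomal genes called ranged from 8 to 15 in hippocampus and from 1 to 13 between regions, hydrolases from 3 to 5 in hippocampus, pump genes from 1 to 2 in cortex, 0 to 4 in hippocampus and 0 to 9 (lower) between regions. The distance of the medians ranged from 0.23 to 0.39 in cortex and from 0.45 to 0.54 in hippocampus.

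With mouse as a replicate block, the interaction had 70 genes in place of 59, the regions 2002 in place of 2351, and of the 46 genes 0 and 8 were called. The block changed no other call reported here beyond those named with the regions. It could not be used within a tissue, where each mouse gave 1 library.

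The following of these values, none of them called, changed sign. In batch 1 alone, Gaa, Laptm4a, Arsa and Gla in hippocampus were 0.11, -0.075, -0.12 and -0.37, and Tfe3 and Smpd1 in cortex were -0.084 and 0.056. In batch 2 alone, Atp6ap2, Atp6v0a1, Atp6v0b and Atp6v0c in cortex were 0.012, 0.0070, 0.0021 and 0.011, Tfeb, Laptm4b, Arsa, Manba and Glb1 in cortex were -0.017, -0.18, -0.25, -0.34 and -0.086, and Naglu, Psap, Tfe3, Laptm4b and Arsb in hippocampus were -0.16, -0.086, -0.069, -0.049 and 0.032. Without the choroid plexus libraries, Atp6v1h, Psap, Tfe3, Gla and Glb1 in hippocampus were 0.070, -0.024, -0.0083, -0.15 and -0.22. With the choroid plexus covariate Laptm4b in cortex was -0.013, and with limma-voom Glb1 in cortex was -0.010. Without the filter, Psap, Tfe3 and Gla in hippocampus were -0.057, -0.069 and -0.033, Tfe3 in cortex was -0.0080, Laptm4b in cortex -0.0026 and Glb1 in cortex -0.025. Thinned, Atp6v1c1 in cortex was 0.021, Atp6v1h in hippocampus 0.0090, Laptm4a in hippocampus -0.0072, Mcoln1 in hippocampus 0.16, Npc1 in cortex -0.069 and Glb1 in cortex -0.10. With upper quartile factors, Atp6v0c in cortex was 0.0022. With 1 library left out, cortex values ranged from -0.060 to 0.018 for Atp6ap2, -0.074 to 0.0026 for Atp6v0b, -0.12 to 0.038 for Atp6v0c, -0.034 to 0.11 for Npc1, -0.052 to 0.096 for Glb1, -0.068 to 0.15 for Arsa, -0.019 to 0.090 for Laptm4b and -0.092 to 0.12 for Tfe3, and hippocampus values from -0.12 to 0.037 for Gaa, -0.19 to 0.18 for Gla, -0.12 to 0.019 for Arsb, -0.052 to 0.064 for Psap and -0.057 to 0.11 for Tfe3.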

Other observations

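Between the regions of control mice, the further lysosomal lists moved in few genes. Of those tested, 1 of 16 further hydrolases was called higher in hippocampus and 1 of 6 further pump genes lower. Among 10 sorting genes 2 were higher, among 12 of the mTORC1 platform 2 were lower, and among 17 further membrane proteins 1 was higher and 1 lower. Of the genes of enzyme sorting, Sort1 and Gnptab, a subunit of the enzyme that adds the mannose 6-phosphate tag, were higher in hippocampus, at 0.58 ± 0.11 (SE, adjusted p = 0.002) and 0.55 ± 0.18 (SE, adjusted p = 0.0487) on the log2 scale (edgeR). Lamtor4 and Lamtor5, subunits of the Ragulator complex that docks mTORC1 on the lysosome, were lower in hippocampus, at -0.52 ± 0.11 (SE, adjusted p = 0.00263) and -0.36 ± 0.10 (SE, adjusted p = 0.0209). Cd63 was higher, at 0.62 ± 0.16 (SE, adjusted p = 0.0151), with overlap of 66.3 to 103 CPM in the cortex controls and 89.5 to 174 CPM in the hippocampus controls. The part of choroid plexus in the Cd63 difference was not tested. Lamp5 was lower, at -1.98 ± 0.17 (SE, adjusted p = 6.21e-07), with 60.8 to 157 CPM in the cortex controls and 20.4 to 30.8 CPM in the hippocampus controls. The genes of this paragraph were picked from their values, and 16.3% of all genes were called in this comparison.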
